A study of Mus musculus with 9 samples.

Results

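The open regions of mouse chromosome 19 were followed through 9 ATAC-seq libraries of embryonic stem cells. All peaks on this chromosome were taken from the 9 peak lists (mm10 build), and peaks that overlapped by at least 1 bp were joined, which gave 2703 union regions out of 116362 over all chromosomes. The chromosome was chosen by its share of peaks per library, which was smaller in TetR-MYBTA cells than in the other cells. That difference, and every other difference between TetR-MYBTA and the remaining lines on this chromosome, is therefore given as a description with no test.

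One line carried a stably integrated TetR-MYBTA construct, another line carried a stably integrated TetR construct, and the third line was wild type (WT), with no construct named. All 3 lines were E14 cells, a mouse embryonic stem cell line, of a variant the labels call TOT2N, and each had 3 libraries. The labels give neither the promoter of the constructs nor whether a line is 1 clone, and they do not say whether the libraries of a line are separate cultures, so p-values below rest on differences between libraries that may be technical only. Of the stem cell marker genes Sox2, Pou5f1 and Nanog, Sox2 had a peak within its body or 1 kb on either side in all 9 libraries, Pou5f1 in 7 and Nanog in 4.

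In ATAC-seq the Tn5 transposase cuts DNA that is not covered by nucleosomes and leaves sequencing adapters there, so a peak marks a stretch of accessible DNA. Such stretches lie at the starts of genes, where transcription begins, and at enhancers, which often lie inside introns or between genes. TetR is the bacterial tetracycline repressor, a DNA-binding protein that can carry other protein parts to chosen sites, and MYB is a transcription factor known for its role in blood progenitors, whose core binding sequence reads AACNG. Chromosome 19 is the shortest mouse autosome and is rich in genes.

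Per library, 16.4 to 23.0 M tags were counted and 45136 to 70230 peaks were called, with replicate 3 of TetR-MYBTA giving the shortest list. Tags inside peaks made up 7.57, 7.44 and 5.48% of all tags in TetR-MYBTA, 9.78, 9.72 and 9.30% in TetR and 7.84, 8.09 and 7.79% in WT. This share was lower in every TetR-MYBTA library than in any other library, and its part in the results on chromosome 19 was not tested. List length was examined, and values from lists cut to the first 45136 rows are given where they differ. The peaks carry no tag counts, and each library is a bulk sample, so fewer cells with an open region and a weaker opening in each cell cannot be told apart. No library of genomic DNA is among the 9, so the number of copies of each chromosome in the lines was not tested.

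Promoters with and without a peak in TetR-MYBTA can be shown letter by letter. RefSeq promoter windows of 300 bp (250 bp before to 50 bp after an annotated start, GRCm38.p6, which is the mm10 build) were available for 1044 starts on chromosome 19. Of these, 5 had a peak in all 6 TetR and WT libraries and in no TetR-MYBTA library, which is 0.479% of the windows against a background of 0.259% over all chromosomes, and none had the reverse pattern (background 0.0365%). They belonged to Fas, Dnmbp, Slc18a2 and the predicted genes Gm36126 and Gm33756. The 3 with a named gene follow, and then 3 windows with a peak in all 9 libraries that stood highest in the lists. Fas encodes a cell surface receptor that triggers apoptosis (chr19:34290409-34290708, plus strand). Dnmbp encodes a scaffold protein that activates the small GTPase Cdc42, and its window is at a start inside the gene (chr19:43879719-43880018, minus strand). Slc18a2 encodes the transporter that loads monoamines into vesicles (chr19:59260628-59260927, plus strand). Add3 encodes an adducin of the membrane skeleton (chr19:53142506-53142805, plus strand), Tle4 a corepressor of the Groucho family (chr19:14598134-14598433, minus strand), and 1110059E24Rik is named only (chr19:21652742-21653041, minus strand). Capitals mark AACNG read on either strand.
Fas promoter, lost: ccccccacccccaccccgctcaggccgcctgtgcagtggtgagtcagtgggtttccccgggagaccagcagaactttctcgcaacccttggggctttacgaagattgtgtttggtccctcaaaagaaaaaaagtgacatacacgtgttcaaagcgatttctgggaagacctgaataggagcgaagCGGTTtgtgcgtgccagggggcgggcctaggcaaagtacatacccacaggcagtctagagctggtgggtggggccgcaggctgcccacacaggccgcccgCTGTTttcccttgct
Dnmbp internal promoter, lost: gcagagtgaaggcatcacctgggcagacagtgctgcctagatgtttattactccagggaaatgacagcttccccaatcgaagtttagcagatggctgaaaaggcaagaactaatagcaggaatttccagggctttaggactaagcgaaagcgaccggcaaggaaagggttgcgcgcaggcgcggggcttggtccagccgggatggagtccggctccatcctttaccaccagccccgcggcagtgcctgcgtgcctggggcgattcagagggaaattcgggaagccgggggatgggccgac
Slc18a2 promoter, lost: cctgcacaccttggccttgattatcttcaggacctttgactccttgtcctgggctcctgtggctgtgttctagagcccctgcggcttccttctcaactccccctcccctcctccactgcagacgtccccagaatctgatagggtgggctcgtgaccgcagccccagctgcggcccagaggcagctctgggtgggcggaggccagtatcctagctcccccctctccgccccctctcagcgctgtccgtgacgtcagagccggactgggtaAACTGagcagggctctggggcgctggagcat
Add3 promoter, kept: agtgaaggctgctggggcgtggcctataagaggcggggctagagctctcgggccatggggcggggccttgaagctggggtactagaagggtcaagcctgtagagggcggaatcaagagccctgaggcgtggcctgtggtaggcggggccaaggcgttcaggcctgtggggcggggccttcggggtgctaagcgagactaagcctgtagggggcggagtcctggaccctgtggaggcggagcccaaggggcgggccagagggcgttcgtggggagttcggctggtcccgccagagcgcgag
Tle4 promoter, kept: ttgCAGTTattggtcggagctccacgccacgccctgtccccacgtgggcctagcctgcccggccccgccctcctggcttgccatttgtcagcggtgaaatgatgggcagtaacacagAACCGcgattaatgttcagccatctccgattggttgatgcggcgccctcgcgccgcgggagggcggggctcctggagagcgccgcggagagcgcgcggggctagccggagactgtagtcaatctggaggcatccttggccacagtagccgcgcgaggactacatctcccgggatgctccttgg
1110059E24Rik promoter, kept: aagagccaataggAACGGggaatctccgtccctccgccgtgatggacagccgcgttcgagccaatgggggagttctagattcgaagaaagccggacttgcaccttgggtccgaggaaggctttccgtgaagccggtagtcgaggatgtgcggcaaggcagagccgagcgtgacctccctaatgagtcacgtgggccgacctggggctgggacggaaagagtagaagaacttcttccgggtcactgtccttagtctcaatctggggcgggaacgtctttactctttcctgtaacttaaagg

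AACNG stood in the Fas, Slc18a2, Tle4 and 1110059E24Rik windows and in neither the Dnmbp nor the Add3 window. The motif is short, and 80.3% of all 32851 promoter windows of the genome hold it on one strand or the other, so its presence describes the letters and nothing more. CpG dinucleotides were counted in the same windows: the 264 chromosome 19 windows with a peak in all 9 libraries (25.3%, background 21.7%) had a median of 23 CpG dinucleotides, the 5 lost ones a median of 12, and the 530 with no peak in any library a median of 3. On the other chromosomes the 6869 kept windows had a median of 22 and the 80 lost ones a median of 19. A peak touched 36.1, 34.0 and 33.3% of the chromosome 19 windows in TetR-MYBTA, 41.7, 39.4 and 39.9% in TetR and 38.4, 37.8 and 39.0% in WT. Each TetR-MYBTA value was below each TetR and WT value, with a ratio of means of 0.876, against 0.919 over the promoters of the other chromosomes. The lines were separated there too, with 30.3, 29.3 and 28.0% in TetR-MYBTA, 32.2, 31.9 and 31.0% in TetR and 31.5, 31.9 and 32.0% in WT. These shares of windows are not adjusted for list length. In lists of equal length 2 of the 5 windows, those of Dnmbp and Slc18a2, still had the lost pattern, and in the upper 50% of each list 0 of the 5 had it.

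Chromosome 19 held 1125, 1089 and 852 peaks in the TetR-MYBTA libraries, 1755, 1656 and 1473 in the TetR libraries and 1385, 1506 and 1456 in the WT libraries. As a share of all peaks of a library this was 1.90 ± 0.0156% in TetR-MYBTA, 2.51 ± 0.00600% in the TetR line and 2.43 ± 0.0338% in WT (mean ± SD of 3 libraries each). The share thus varied far less within each line than the number of peaks did, and it was as low in the shortest TetR-MYBTA list as in the others. TetR lay 0.0797 percentage points above WT with no overlap of the libraries (two-sided exact permutation p = 0.1, the smallest p that 3 against 3 libraries can give). This did not hold in other lists: the difference was 0.0458 at equal length (exact permutation p = 0.3) and -0.0378 in the upper 50% of each list (exact permutation p = 0.6).

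The shortage was uneven over positions. Peaks were divided by their midpoint into those within 1 kb of either end of a protein-coding gene, those inside a gene and those between genes, because the gene table used gives no strand, exons or introns. Inside genes TetR-MYBTA had 383, 375 and 268 peaks, TetR had 716, 669 and 585 and WT had 525, 577 and 557, which as a share of all peaks was 0.631 ± 0.0338%, 1.01 ± 0.0126% and 0.926 ± 0.0104% (SD, n = 3 each). The ratio of TetR-MYBTA to the mean of the other 6 libraries was 0.653. Between genes the counts were 376, 365 and 246 in TetR-MYBTA, 587, 540 and 463 in TetR and 448, 524 and 485 in WT, a ratio of shares of 0.745. At both positions every TetR-MYBTA share lay below every share of the other lines.

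At gene ends the lines overlapped. TetR-MYBTA had 366, 349 and 338 such peaks, TetR had 452, 447 and 425 and WT had 412, 405 and 414. As shares of all peaks these were 0.658 ± 0.0783%, 0.682 ± 0.0400% and 0.688 ± 0.0433% (SD, n = 3 each), a ratio of 0.961. The overlap came from replicate 3 of TetR-MYBTA, whose short list is rich in gene ends: without it the ratio was 0.895, and in lists of equal length it was 0.850, against 0.694 inside genes and 0.775 between genes in the same lists.

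**Figure D1:**
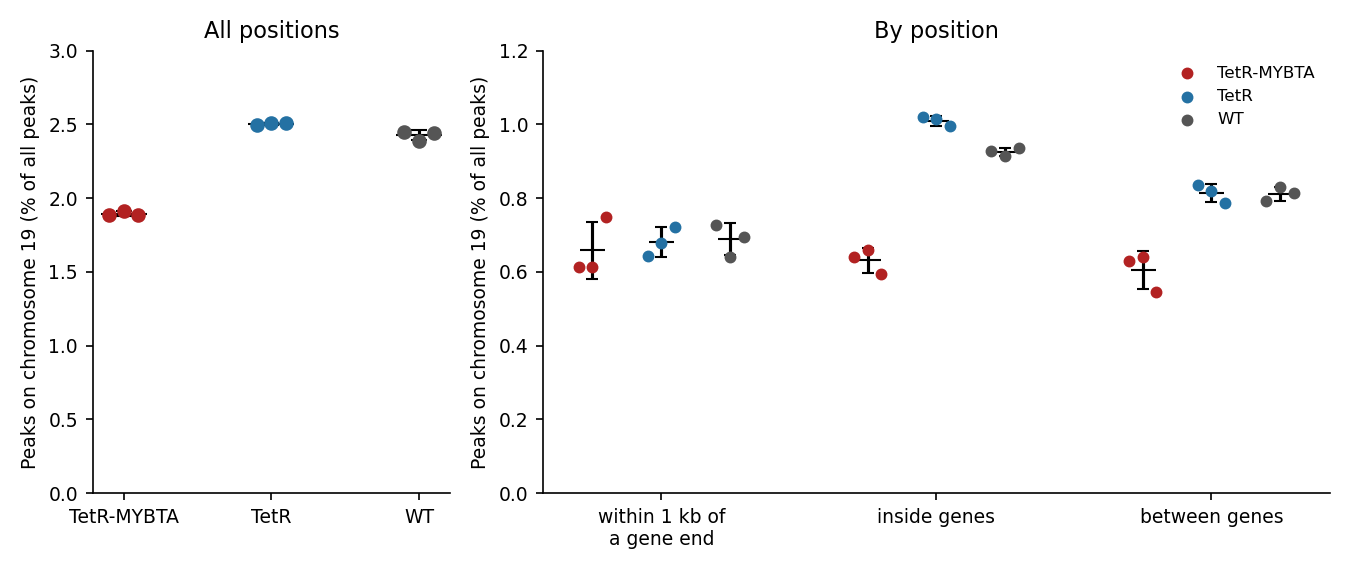
Peaks on chromosome 19 as a percentage of all peaks of each library, for all positions (left) and by position (right); each point is a library, horizontal lines are means and bars are SD (n = 3). Inside genes and between genes the TetR-MYBTA points lie below all others, and at gene ends the lines overlap.

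Within the chromosome, gene ends made up 34.8 ± 4.27% of the peaks in TetR-MYBTA, 27.2 ± 1.56% in the TetR line and 28.4 ± 1.43% in WT, while peaks inside genes were 33.3 ± 1.62%, 40.3 ± 0.548% and 38.2 ± 0.220% (SD, n = 3 each). The difference of TetR-MYBTA from the other 6 libraries was 6.97 percentage points at gene ends, and in lists of equal length it was 3.46. Over the other chromosomes it was 0.484 in the full lists. Inside genes the difference was -5.92 on chromosome 19 and -4.15 on the other chromosomes, where such peaks were 33.4 ± 0.747% in TetR-MYBTA, 38.3 ± 0.454% in TetR and 36.8 ± 0.364% in the WT line (SD, n = 3 each). Between genes the shares were 31.9 ± 2.65%, 32.5 ± 1.01% and 33.5 ± 1.23%, a difference of -1.05 that turned to 0.480 without replicate 3 of TetR-MYBTA and to 0.123 in lists of equal length. TetR and WT did not differ past the threshold at any position (two-sided exact permutation tests, adjusted p = 0.5 at gene ends, 0.3 inside genes and 0.5 between genes, where 3 against 3 libraries cannot go below an unadjusted 0.1).

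Chromosome 19 was compared with the remaining chromosomes inside each library, a contrast that did not choose it. In the 6 TetR and WT libraries gene ends were 27.8% of the peaks on chromosome 19, against 20.3% on the other chromosomes, a mean difference of 7.50 percentage points that was positive in all 6 libraries. Peaks between genes were 33.0%, against 42.2%, a difference of -9.20 that was negative in all 6. Both passed (two-sided exact sign-flip permutation tests, adjusted p = 0.0313 each, the smallest that 6 libraries can give). All libraries share the same genome and gene annotation, so the same sign in each was to be expected on a chromosome rich in genes. The p-values therefore show only that the libraries agree. Over all 9 libraries the differences were 9.66 and -10.8 points, each with the same sign in 9 of 9 libraries (exact sign-flip tests, adjusted p = 0.00586 each). The 9 include the TetR-MYBTA libraries, whose lower share of peaks chose the chromosome. By line, the excess at gene ends was 13.98 ± 2.26 points in TetR-MYBTA, 7.32 ± 0.372 in the TetR line and 7.67 ± 0.580 in WT (mean ± SD of 3 libraries each). Inside genes the difference was -0.0666 ± 0.896 points in TetR-MYBTA, 2.04 ± 0.0963 in TetR and 1.38 ± 0.215 in the WT line (SD, n = 3 each). It was 1.71 points over the 6 libraries (exact sign-flip test, adjusted p = 0.0313) and 1.12 over all 9 (adjusted p = 0.0195, exact sign-flip test). It changed sign in lists of equal length, to -0.335 and -0.566 points, and in the upper 50% of each list, to -1.24 and -2.23 points.

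Each of the 2703 regions was then counted by the libraries that held it. On chromosome 19, 541 regions had a peak in all 9 libraries, 665 in 1 library and the remainder in 2 to 8. Of the regions in all libraries 44.7% lay at gene ends, and of those in 1 library 14.7%. Regions with a peak in all 6 TetR and WT libraries and in no TetR-MYBTA library numbered 60, or 2.22% of the chromosome's regions (background 1.16%), and the reverse was found for 4, or 0.148% (background 0.587%). In lists of equal length the numbers were 28 and 2, and without replicate 1, 2 or 3 of TetR-MYBTA the missing regions numbered 100, 97 and 74 and the private ones 8, 8 and 12.

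Pairs of lines were counted in the same way. In all TetR-MYBTA and no TetR libraries 12 regions had a peak (0.444%, background 1.4%), and in all TetR and no TetR-MYBTA libraries 197 (7.29%, background 4.43%). Against WT, 6 regions were in all TetR-MYBTA and no WT libraries (0.222%, background 1.23%) and 122 in all WT and no TetR-MYBTA libraries (4.51%, background 2.79%). Between the lines without MYBTA, 67 regions were in all TetR and no WT libraries (2.48%, background 2.26%) and 38 in all WT and no TetR libraries (1.41%, background 1.37%). The shares for TetR and WT were thus close to the background. These comparisons share libraries, so they are not separate evidence.

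The missing regions lay mostly away from gene ends: 34 of the 60 were inside genes (56.7%), 21 between genes (35.0%) and 5 at gene ends (8.33%). Missing regions over all chromosomes divided in a similar way, with 48.7% inside genes, 40.8% between genes and 10.5% at gene ends. The 60 were spread over 23 windows of 2 Mb, with at most 7 in one, and 54 had no TetR-MYBTA peak within 1 kb. Most stood low in the peak lists. Place in a list is given as a percentile, with 100 for the first row, because the lists are ordered and their score column is constant. The median mean place of the 60 was 38.3 (range 16.1 to 88.9), against 66.4 for the 803 regions with a peak in all 6 TetR and WT libraries.

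The missing region highest in the lists lay at chr19:5846602-5846817, between genes, 4.16 kb from Frmd8, whose product binds the iRhom proteins, and 1.12 kb from Neat1, a long noncoding RNA that builds paraspeckles. It stood at the 85.7, 87.3 and 84.6 percentile in the TetR libraries and at 92.5, 88.4 and 95.1 in the WT libraries. A TetR-MYBTA peak did lie within 1 kb of it, as also for the region inside Stx3, a syntaxin gene (chr19:11807936-11808200). It was the only one of the 8 highest that also counted as missing in the upper 50% of each list, while 7 of the 8, all but the one near Ctsf, did so in lists of equal length.

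Homeobox genes of development were next to 2 of the 8. One region lay 3.85 kb from Emx2, a homeobox gene of the forebrain and urogenital system (chr19:59469209-59469513), at the 84.9, 77.5 and 80.05 percentile in TetR and 48.0, 42.0 and 55.0 in WT. The other lay at a gene end, 0.497 kb from Nkx2-3, a homeobox gene of spleen and gut (chr19:43616389-43616722), at 67.1, 73.4 and 59.7 in TetR and 56.0, 61.0 and 49.5 in WT. This region also lies inside Gm34922, a long noncoding RNA gene. Places in TetR and WT libraries did not overlap near Emx2 and overlapped near Nkx2-3. The remaining ones lay 5.07 kb from Ctsf, a cathepsin gene (chr19:4849827-4850100), and inside Apba1, an adaptor gene of synapses (chr19:23948071-23948524), Pip5k1b, a phosphoinositide kinase gene (chr19:24491879-24492109), and Golga7b (chr19:42255922-42256157).

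Of the 4 regions private to TetR-MYBTA, one lay 50.3 kb from Cep78, a centrosome gene (chr19:16036033-16036271), at the 61.7, 68.2 and 33.5 percentile in the TetR-MYBTA libraries, and one 44.4 kb from Gda, the guanine deaminase gene (chr19:21346726-21346949), at 75.7, 67.1 and 9.53. The others, inside Noc3l (chr19:38814030-38814302) and inside Trpm6, a magnesium channel gene (chr19:18758294-18758533), averaged 11.2 and 10.2, and neither counted as private in lists of equal length.

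Regions that TetR and WT share had a lower kept share on chromosome 19 than on other chromosomes, a value that belongs to the contrast that chose it. Of the 803 regions with a peak in all 6 TetR and WT libraries, 672, 664 and 600 had a peak in the TetR-MYBTA libraries, a kept share of 80.4 ± 4.91%, against 86.9 ± 4.43% of 27378 such regions on the other autosomes (SD, n = 3 each). Chromosomes 1 and 11 were left out of that set because earlier results of these data showed a raised share of peaks there in TetR-MYBTA. Chromosome 19 had the lowest kept share of the 20 chromosomes counted, followed by chromosome 9 with 84.5 ± 5.68%. In lists of equal length the kept shares were 84.5 ± 1.45% of 614 regions and 90.3 ± 0.400%.

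The regions were also split by their place in the lists, after the data were seen. Among regions with a mean place up to the 40th percentile in the TetR and WT lists, 42.1 ± 13.9% of 114 were kept on chromosome 19, against 59.8 ± 10.5% of 3812 on the other autosomes. Between 40 and 60 the shares were 69.2 ± 7.23% and 79.4 ± 8.06%, between 60 and 80 they were 90.3 ± 3.94% and 93.6 ± 2.74%, and above 80 they were 98.5 ± 0.485% and 98.9 ± 0.275% (SD, n = 3 each). The kept share nears its ceiling at the top of the lists. The mean share of regions not kept on chromosome 19 was between 1.44 and 1.52 times that on the other autosomes in each of these 4 ranges. Above 80 this ratio rests on few regions, since 235, 235 and 233 of 238 were kept on chromosome 19. By position, gene ends kept 90.7 ± 1.37% on chromosome 19, against 92.4 ± 2.51% elsewhere, regions inside genes 72.3 ± 6.14%, against 82.8 ± 5.65%, and regions between genes 76.8 ± 7.93%, against 86.8 ± 4.70%. Gene ends also stood higher in the lists, with a median place of 78.9, against 60.8 inside genes and 58.1 between genes. Below the 66th percentile the positions were closer in place but not matched, with median places of 56.3 at gene ends, 46.1 inside genes and 47.2 between genes. There gene ends kept 72.6 ± 3.15% on chromosome 19, against 76.7 ± 7.65% elsewhere. Regions inside genes kept 56.3 ± 8.57%, against 71.8 ± 9.10%, and regions between genes 66.4 ± 11.6%, against 78.5 ± 7.47%. Above the 66th percentile gene ends kept 97.9 ± 0.727%, against 97.8 ± 0.739%. Regions inside genes kept 95.2 ± 3.14%, against 96.7 ± 1.32%, and regions between genes 95.6 ± 1.37%, against 97.6 ± 1.08%.

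**Figure D2:**
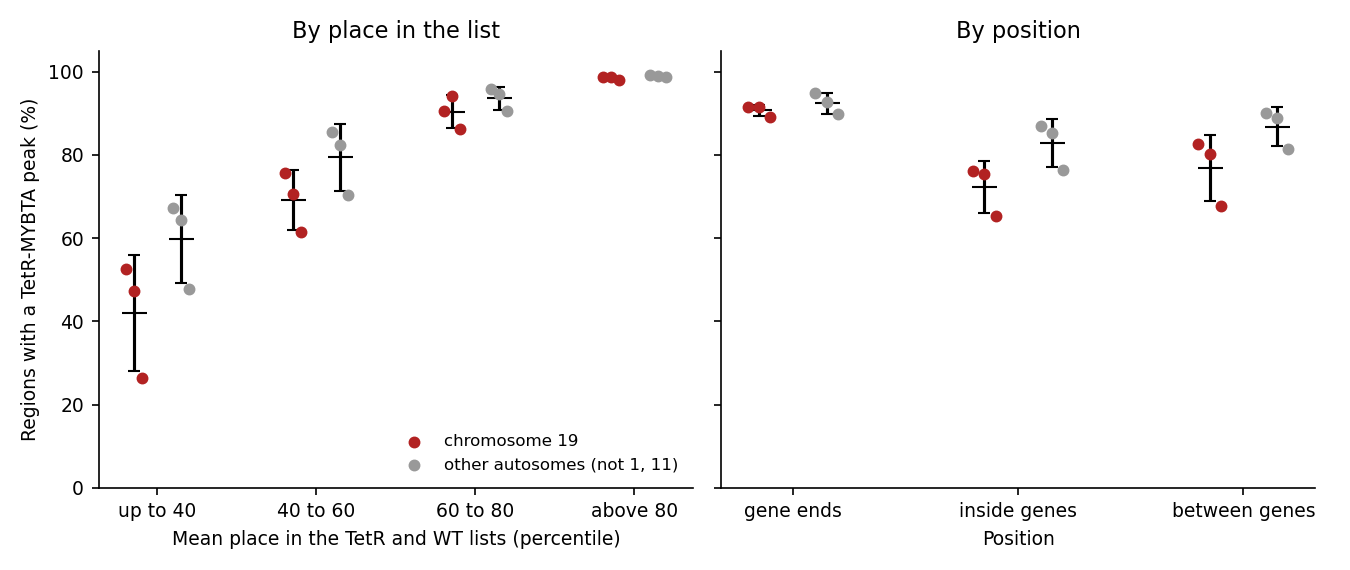
Percentage of regions with a peak in all 6 TetR and WT libraries that also had a peak in each TetR-MYBTA library, on chromosome 19 (red) and on the other autosomes apart from 1 and 11 (grey), by mean place in the TetR and WT lists (left, 100 is the first row) and by position (right). Points are TetR-MYBTA libraries, horizontal lines means and bars SD (n = 3); both colours rise toward the top of the lists, with the mean for chromosome 19 below the mean for the other autosomes in each range and at each position.

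Regions open in every library shifted as well. In each list the 26020 regions shared by all 9 libraries were ranked among themselves, and the median rank of the 541 on chromosome 19, with 100 for the first, was 41.4 ± 1.79 in TetR-MYBTA, 52.1 ± 0.647 in the TetR line and 56.8 ± 1.05 in WT (mean ± SD of 3 libraries each). The difference of TetR from WT was -4.66 with no overlap of the libraries (two-sided exact permutation p = 0.1, the smallest p possible). The mean rank was lower in TetR-MYBTA for 453 of the 541 regions, or 83.7%, against 52.2% of the constant regions on the other chromosomes. Every TetR-MYBTA rank lay below every other rank in 96, or 17.7% (background 8.92%), and above in 6, or 1.11% (background 11.7%). The median difference was -11.2 for the 242 regions at gene ends, -13.0 for the 155 inside genes and -4.86 for the 144 between genes, so gene ends with a peak in every library also moved down the lists.

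The constant regions that moved furthest down lay inside Prkg1, a cGMP-dependent protein kinase gene (chr19:31106061-31106359, ranks 2.42, 21.7 and 20.5 in TetR-MYBTA, 66.3, 70.3 and 76.5 in TetR and 67.8, 50.6 and 51.7 in WT), 15.3 kb from Dntt, which encodes terminal transferase (chr19:41013634-41013926), 246.6 kb from Sorcs1, a sortilin-related receptor gene (chr19:49896355-49896671), and inside Pga5 and Cemip2. Their differences ran from -49.0 to -44.4. The region that moved furthest up, by 49.7, was also in the surroundings of Sorcs1, at 617.5 kb (chr19:51296608-51296903), with ranks of 70.6, 86.7 and 82.8 in TetR-MYBTA, 21.7, 18.2 and 2.61 in TetR and 52.3, 43.7 and 43.3 in WT. The next were 11.2 kb from Keg1, 458.3 and 452.6 kb from Sorcs3 (2 regions), and at an end of Ighmbp2, a helicase gene, with differences of 25.4 to 38.1. TetR and WT ranks differed too at the regions around Sorcs1: all TetR ranks lay below all WT ranks at the one 617.5 kb away, and all lay above them at the one 246.6 kb away, where TetR had 73.2, 65.5 and 71.9 and WT had 35.0, 48.7 and 53.6. This was not particular to Sorcs1. All TetR ranks also lay above all WT ranks inside Pga5, and below them inside Cemip2 and near Keg1. At the remaining named constant regions TetR and WT ranks overlapped.

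Along the chromosome the reduction was broad. In 30 windows of 2 Mb with at least 20 peaks the ratio of the mean share in TetR-MYBTA to that in the other 6 libraries had a median of 0.782, against 1.02 over 1262 windows of the other chromosomes, and 28 of the 30 lay under 1. In 18 windows every TetR-MYBTA share was below every other share (background 26.2% of windows), and in none was it above (background 28.8%). The ratio of TetR to WT over the same windows ran from 0.852 to 1.31 with a median of 1.04.

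The lowest ratios were in a neighbouring pair of windows in the distal part of the chromosome. From 58 to 60 Mb (chr19:58000001-60000000) the libraries held 18, 12 and 9 peaks in TetR-MYBTA, 39, 37 and 37 in TetR and 33, 40 and 40 in WT, a ratio of shares of 0.392. From 56 to 58 Mb they held 22, 20 and 18 peaks in TetR-MYBTA, 56, 54 and 51 in TetR and 39, 56 and 52 in WT, a ratio of 0.454. The last window, from 60 to 62 Mb, had a ratio of 0.724. A separate low window, from 24 to 26 Mb, held 26, 20 and 21 peaks in TetR-MYBTA, 58, 59 and 52 in TetR and 45, 54 and 41 in WT, a ratio of 0.507.

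These windows contain genes of several kinds. The distal pair holds Ablim1, which encodes an actin-binding LIM protein, Atrnl1, Hspa12a, a distant member of the heat shock protein family, and the homeobox genes Vax1 and Emx2. Hspa12a had 2, 2 and 2 peaks over its body in TetR-MYBTA, 6, 7 and 5 in TetR and 4, 6 and 7 in WT. Other genes of these windows had the same count throughout: Pdzd8 and Rab11fip2, which encodes a Rab11 effector of endosome recycling, each had exactly 1 peak in every library, and Trub1, a pseudouridine synthase gene, had 2 in every library. The window from 24 to 26 Mb holds the Dmrt genes, transcription factors of sex development. Dmrt3 had 1, 1 and 0 peaks in TetR-MYBTA and 2 in each TetR and WT library.

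The windows with the highest ratios were from 12 to 14 Mb (28, 26 and 20 peaks in TetR-MYBTA, 33, 29 and 24 in TetR and 22, 29 and 29 in WT, ratio 1.03), from 18 to 20 Mb (ratio 1.02) and from 6 to 8 Mb (ratio 0.968). In these the lines overlapped. Across the 30 windows the ratio had a Spearman correlation of 0.459 (Pearson 0.501) with the median place of the window's peaks in the TetR and WT lists, 0.145 with the number of coding genes, 0.0331 with the percentage of peaks at gene ends and -0.271 with the percentage inside genes. The windows share all their libraries, so these values only describe the chromosome.

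**Figure D3:**
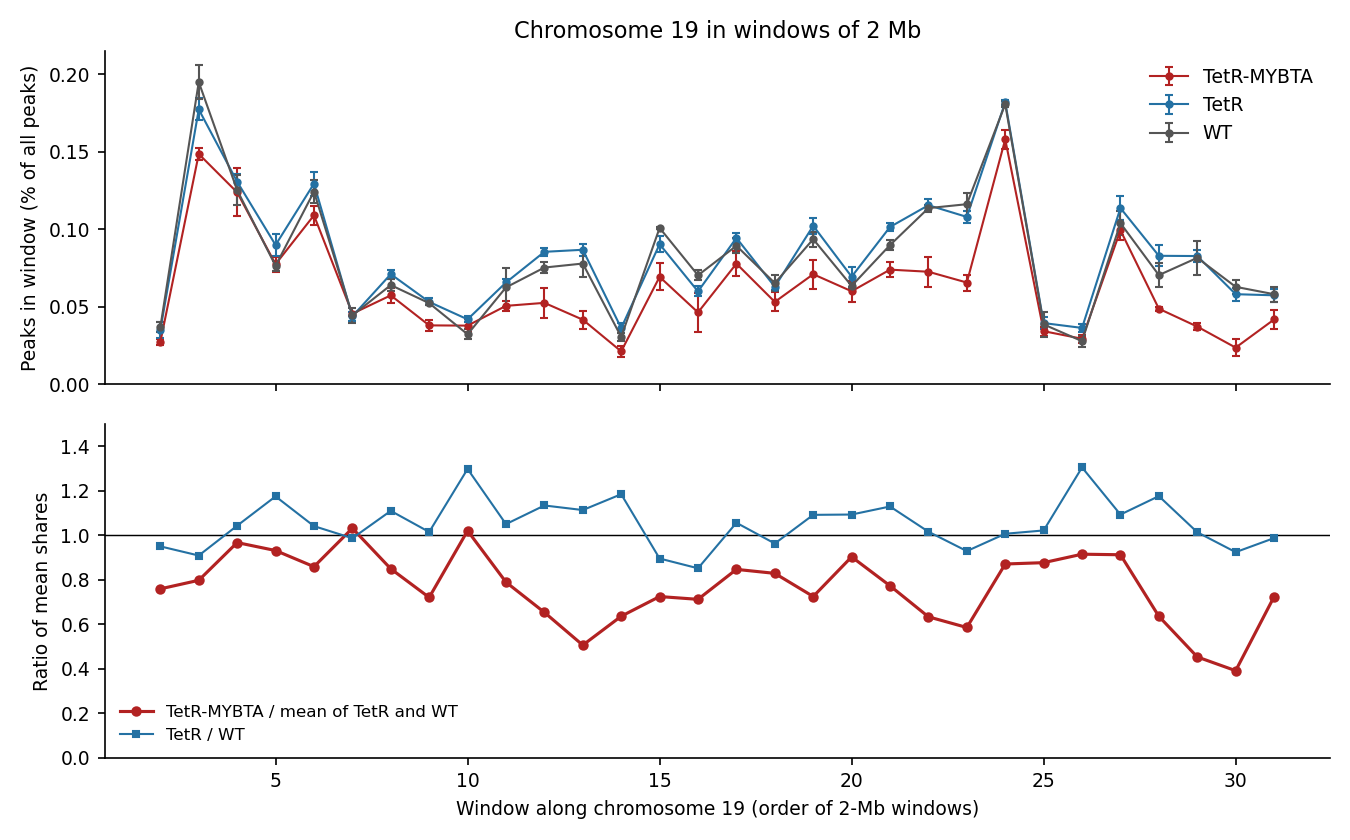
Peaks in windows of 2 Mb along chromosome 19, in order, as a percentage of all peaks of a library (top; points are means over 3 libraries, bars SD) and ratios of mean shares (bottom). The ratio of TetR-MYBTA to TetR and WT (red) is under 1 in 28 of 30 windows and lowest in the window from 58 to 60 Mb, while the ratio of TetR to WT (blue) lies between 0.852 and 1.31.

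Genes were classed by peaks over the gene body and 1 kb on either side. Of the 705 protein-coding genes of chromosome 19, 392 had a peak in all 9 libraries, or 55.6% (background 57.1%). A peak in all 6 TetR and WT libraries and in no TetR-MYBTA library was found for 9 genes, or 1.28% (background 0.608%), and the reverse for none (background 0.0731%). A further 157 genes had no peak in any library and 147 had mixed patterns. The share of genes that kept a peak was thus close to the background.

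The 9 genes without a TetR-MYBTA peak were Npas4, Ccdc88b, Cd6, Fam189a2, Foxd4, Insl6, Fas, Golga7b and Shtn1. Npas4, a transcription factor gene switched on by neuronal activity, had 2, 2 and 2 peaks in TetR and 2, 2 and 1 in WT. Fam189a2 had 3, 2 and 3 in TetR and 2, 1 and 2 in WT, and Shtn1, which encodes shootin, a protein of axon growth, had 1, 3 and 1 in TetR and 2, 2 and 2 in WT. Cd6 encodes a receptor of T cells, Foxd4 a forkhead transcription factor and Insl6 a peptide of the insulin family made in testis, and these had 1 or 2 peaks per library in both lines. With so few peaks the class depends on list length: in lists of equal length 1 of the 9, Golga7b, was still lost, and 3 genes were lost in all. In the upper 50% of each list 0 of the 9 were among the 15 lost genes.

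Other genes lost some of their peaks. Fewer peaks in every TetR-MYBTA library than in any other library were found for 37 genes, or 5.25% (background 3.47%), and more for none (background 0.265%). The 37 include the 9 lost genes, which meet this rule by construction, so 28 had fewer peaks without losing all. The genes with fewer peaks were long, with a median length of 91.7 kb, against 15.3 kb for all genes of the chromosome and 21.4 kb for the kept ones, and a long gene has more peaks that can be counted.

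The largest losses, picked after their values were seen, were in such long genes. Ablim1 (282.6 kb) had 2, 1 and 1 peaks in TetR-MYBTA, 11, 9 and 6 in TetR and 8, 10 and 12 in WT. Atrnl1 (522.4 kb), a relative of the attractin gene, had 5, 5 and 4 in TetR-MYBTA, 15, 14 and 14 in TetR and 9, 12 and 12 in WT. Both averaged 8 peaks fewer in TetR-MYBTA than over the other 6 libraries, with no overlap. Sgms1, a sphingomyelin synthase gene, had 11, 13 and 10 peaks in TetR-MYBTA, 21, 21 and 18 in TetR and 19, 16 and 17 in WT. Rbm20, which encodes a splicing regulator of heart muscle, had 8, 7 and 5, against 13, 15 and 11 in TetR and 11, 12 and 13 in WT. Vti1a, a SNARE gene of vesicle fusion, had fewer peaks without overlap too, as did Dnmbp. For Prkg1 and Sh3pxd2a, a scaffold gene of podosomes, 1 or more TetR-MYBTA libraries reached the range of the other lines.

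**Figure D4:**
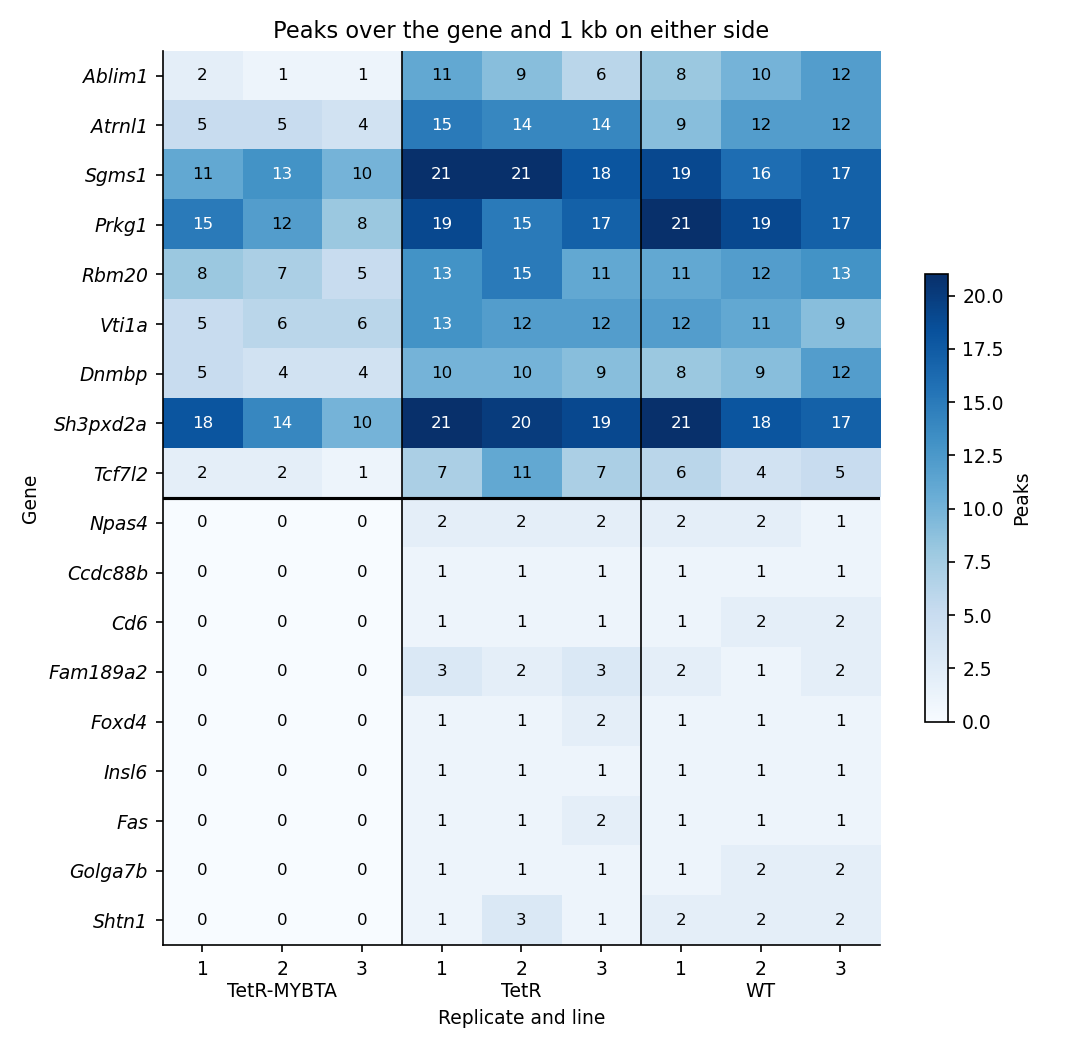
Number of peaks over the gene and 1 kb on either side in each library, for the 9 chromosome 19 genes with the largest mean difference between TetR-MYBTA and the other 6 libraries (above the line) and for the 9 genes with a peak in all TetR and WT libraries and in no TetR-MYBTA library (below). Each cell is 1 library, and darker blue means more peaks; Ablim1 has 1 or 2 peaks in TetR-MYBTA and 6 to 12 elsewhere.

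No gene had more peaks in every TetR-MYBTA library. The largest mean rise was at Nt5c2, a cytosolic nucleotidase gene, with 7, 4 and 5 peaks in TetR-MYBTA, 5, 4 and 3 in TetR and 3, 5 and 3 in WT. These values overlap. Ms4a5, a gene of a family of membrane-spanning proteins, had 1 peak in each TetR-MYBTA library, 0 in each TetR library and 0, 0 and 1 in WT.

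Lists of chromosome 19 genes with known roles showed how far the lower counts reached. Over all 705 genes the summed peaks were 841, 822 and 701 in TetR-MYBTA, 1287, 1230 and 1113 in TetR and 1041, 1087 and 1076 in WT, a ratio of means of 0.692 to the other 6 libraries. These counts are not divided by list length. All list ratios below are of the same kind and are set beside 0.692, not beside 1. Counts of list genes are to be read beside the shares over all genes of the chromosome. Of these, 55.6% kept a peak in all libraries, 1.28% were lost and 5.25% had fewer peaks in every TetR-MYBTA library (backgrounds 57.1, 0.608 and 3.47%).

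Developmental regulators had 29, 33 and 23 peaks in TetR-MYBTA, 58, 56 and 49 in TetR and 44, 42 and 49 in WT over 22 genes, a ratio of 0.570. Of these genes 8 kept a peak in all libraries, none was lost outright, and 3 had fewer peaks in every TetR-MYBTA library: Pax2, Nkx2-3 and Glis3. Pax2, a paired box gene of kidney and eye, had 1, 0 and 1 peaks in TetR-MYBTA, 6, 3 and 3 in TetR and 2, 3 and 4 in WT. Glis3, a zinc finger gene of pancreas and kidney, had 5, 7 and 6 in TetR-MYBTA, 11, 11 and 9 in TetR and 10, 9 and 11 in WT. Sufu, a brake of hedgehog signalling, and Klf9 overlapped between the lines. Vax1, a homeobox gene of the eye and forebrain, had 0 peaks in each TetR-MYBTA library, 1 in each TetR library and 1, 0 and 1 in WT.

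Wnt pathway genes had a ratio of 0.569, with 13, 11 and 9 peaks in TetR-MYBTA, 24, 26 and 18 in TetR and 18, 15 and 15 in WT over 9 genes. Much of this was Tcf7l2, which encodes a DNA-binding effector of Wnt signalling and had 2, 2 and 1 peaks in TetR-MYBTA, 7, 11 and 7 in TetR and 6, 4 and 5 in WT. It was the only one of the 9 with fewer peaks in every TetR-MYBTA library. Tle4 had 4, 2 and 3, against 8, 5 and 4 in TetR and 4, 4 and 3 in WT, and Lrp5, a coreceptor for Wnt ligands, had 1, 1 and 0, against 2, 2 and 1 in TetR and 2, 1 and 2 in WT. Both overlapped. Dkk1, a secreted Wnt inhibitor, had 2, 2 and 1 peaks in TetR-MYBTA, 1, 2 and 1 in TetR and 1, 2 and 2 in WT.

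Blood cell genes had the lowest ratio of the 7 lists, 0.485, with 13, 11 and 8 peaks in TetR-MYBTA, 25, 27 and 22 in TetR and 17, 21 and 20 in WT over 14 genes. Cd6 was lost, Blnk, an adaptor gene of B cell receptor signalling, had 2, 2 and 1 peaks, against 4, 6 and 6 in TetR and 3, 3 and 5 in WT, and 3 of the Ms4a genes had no peak in any library. Jak2, a kinase gene of cytokine receptors, had 3, 1 and 2, against 5, 4 and 3 in TetR and 4, 3 and 2 in WT. Pik3ap1, also an adaptor gene of B cell receptor signalling, had 0, 2 and 0, against 4, 3 and 3 in TetR and 3, 5 and 2 in WT. Of the 14 genes, 6 kept a peak in all libraries.

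Housekeeping genes stood nearest to equality, with a ratio of 0.889 and overlapping sums of 26, 24 and 22 in TetR-MYBTA, 27, 27 and 25 in TetR and 27, 30 and 26 in WT over 20 genes. Of these 17 kept a peak in all libraries and none had fewer in every TetR-MYBTA library. Got1, which encodes a transaminase, had 3, 2 and 2 peaks, against 4, 4 and 4 in TetR and 4, 4 and 3 in WT, Fen1, an endonuclease gene of DNA replication, overlapped, and Actr1a, a dynactin gene, had 2, 3 and 3, against 2, 2 and 1 in TetR and 2, 3 and 2 in WT. Lipid metabolism genes, with Acsl5, Lipa and Fads3 the richest in peaks, also overlapped, with 21, 19 and 17 peaks in TetR-MYBTA, 26, 23 and 22 in TetR and 21, 23 and 21 in WT over 16 genes, a ratio of 0.838.

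Chromatin and transcription regulators lay between, with 48, 45 and 41 peaks in TetR-MYBTA, 75, 67 and 58 in TetR and 56, 52 and 54 in WT over 22 genes, a ratio of 0.740, and 21 of the 22 kept a peak in all libraries. Mxi1, an antagonist of Myc, had 7 peaks in each TetR-MYBTA library, 9, 9 and 8 in TetR and 7 in each WT library. Pcgf5, a Polycomb gene, had 4, 3 and 3, against 6, 4 and 5 in TetR and 4, 5 and 8 in WT. Cell cycle and cell death genes had 30, 31 and 30 peaks in TetR-MYBTA, 46, 44 and 44 in TetR and 33, 37 and 38 in WT over 17 genes, a ratio of 0.752, and 15 kept a peak in all libraries. There Fas was lost and Kif11, the spindle motor gene, had fewer peaks in every TetR-MYBTA library, while Cep55 and Bad, which encode a protein of abscission and a promoter of apoptosis, overlapped.

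The sums compared here are counts of peaks, not divided by list length. In all but the housekeeping and lipid metabolism lists, the summed peaks of every TetR-MYBTA library lay below those of every other library, as they did for all genes of the chromosome. TetR sums lay above WT sums, without overlap, for all 705 genes together and for the chromatin, cell cycle and blood lists. The peak lists held 59675, 56917 and 45136 peaks in TetR-MYBTA, 70230, 65957 and 58762 in TetR and 56612, 63098 and 59575 in WT. Whether these separations of sums hold as shares of all peaks was not tested.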

How the data were processed

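ATAC-seq libraries, 3 for each of 3 E14 mouse embryonic stem cell lines, were grouped by their titles. Per the submitters' processing notes, the build was mm10 and the tools were Bowtie2, Trim Galore 0.6.10, HOMER 4.11, deepTools 3.5.5, Picard and FastQC. Steps for the Tn5 offset and for blacklisted regions are not given in the sources used here. HOMER called the peaks of each library alone, with a threshold of 11 or 12 tags, at least 4-fold more tags than the local 10 kb (local p-value 1e-04) and an FDR of 0.001, per the file headers. The score that the authors deposited with each peak is 1 in every row and carries no ranking, so place in the list was used instead. Row order followed HOMER's peak numbers within chromosome 19 with a lowest Spearman correlation of 0.991. Starts count from 1 here.

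Peaks of any library that overlapped by at least 1 bp formed 1 region. Genes and promoters came from the RefSeq tables for GRCm38.p6 (21887 protein-coding genes, 32851 promoter windows), matched by position. Peaks were assigned by midpoint. Without a genome sequence, peak sequences are not shown. Named regions were the 8 highest missing ones, all private ones, and the 5 constant ones furthest down and up; named genes were all lost ones and, of each of 7 lists, the lost members and the 3 with most peaks in TetR and WT; named windows were the 3 lowest and 3 highest. The chromosome, the lists and the tests were chosen with earlier results of these data known. Some genes are not reported here. The 9 genes with the largest drop, the genes of the named windows, the further list members named for their pattern, the genes with the largest rise, the promoters shown and the split by place were chosen after seeing the values.

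Tests were two-sided exact permutation or sign-flip tests over libraries with Benjamini-Hochberg adjustment over 3 positions, and the scripts were tested on simulated data. Whether replicate numbers pair the libraries is not given by the labels, and the main tests did not pair them. Alternatives were lists of equal length (45136 rows), the upper 50% of each list, joining of peaks up to 200 bp apart, a cover of 50%, presence in 2 of 3 libraries, autosomes only, gene ends within 2.5 kb, genes with 10 kb or by ends only, windows of 1 and 5 Mb, each library left out, and the replicate block. Without tag counts per peak, no interval is given for single peaks. The work used matplotlib 3.10.9, scipy 1.17.1, pandas 2.3.3, numpy 2.4.6 and Python 3.11.15.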

Additional observations from a re-analysis of the deposited data

How the results depend on the processing

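Over all results and alternatives 314 values were classed as the same, 67 as moved, 25 lost a call and 10 changed sign. For a tested difference, the same means an equal sign and an equal side of the threshold, whatever its size. Thus TetR minus WT inside genes went from 2.15 to 0.506 at equal length and still counts as the same. Counts could change within a set fold, and untested values within the SD between libraries. The share of peaks on chromosome 19 was lower in TetR-MYBTA than in TetR and WT in every setting run, by -0.570 points in the main setting, -0.649 in the upper 50% of each list, -0.597 over autosomes only and -0.586 to -0.561 when 1 library was left out. The TetR minus WT difference was 0.0458 at equal length, turned to -0.0378 in the upper 50% and ran from 0.0602 to 0.0901 with 1 library left out.

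For TetR-MYBTA minus TetR and WT, lists of equal length gave 3.46 points at gene ends, -3.58 inside genes and 0.123 between genes; the upper 50% gave 0.822 between genes. Leaving out 1 library gave 4.51 to 8.32, -6.48 to -4.99 and -1.84 to 0.480, the last without TetR-MYBTA replicate 3. For TetR minus WT between genes, equal length gave 0.163, the upper 50% 0.821 and leaving out 1 library -1.56 to -0.332; gene ends then gave -1.98 to -0.435 and the inside of genes 1.90 to 2.44. Inside genes, chromosome 19 minus the others was -0.566 (9 libraries) and -0.335 (6) at equal length, -2.23 and -1.24 in the upper 50%, and 0.0137 over 9 with gene ends at 2.5 kb. Leaving out 1 of 9 libraries gave 8.79 to 9.99 at gene ends, 0.988 to 1.39 inside and -11.1 to -10.2 between genes, each still past the threshold; 1 of 6 gave 7.34 to 7.59, 1.62 to 1.82 and -9.39 to -9.10, where 5 libraries cannot go below p = 0.0625 in an exact test.

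Correlations of deviations ran from -0.0142 to 0.0129 for libraries of the same replicate number and from -0.0146 to 0.0198 for different ones. They cannot exclude shared handling, and the labels do not say whether libraries of one number were prepared together. Peak numbers fell with replicate number in TetR-MYBTA (59675, 56917 and 45136) and TetR (70230, 65957 and 58762), but not in WT (56612, 63098 and 59575). A shared batch was not tested. With the replicate block the differences stayed at 9.66, 1.12 and -10.8 points over 9 libraries and 7.50, 1.71 and -9.20 over 6, but 3 blocks cannot give an exact p below 0.25.

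Counts of regions moved most. Equal length, the upper 50% and presence in 2 of 3 libraries gave 28, 37 and 181 missing and 2, 1 and 20 private regions, and 102, 110 and 435 in TetR and not TetR-MYBTA. For TetR and not WT they gave 41, 30 and 207. Regions in WT and not TetR-MYBTA were 74 at equal length and 309 with 2 of 3. Regions in TetR-MYBTA were 6 and 55 without TetR and 1 and 60 without WT, in the upper 50% and with 2 of 3, which also gave 114 in WT and not TetR. Leaving out 1 library gave 64 to 100 missing, 4 to 12 private, 12 to 34 in TetR-MYBTA and not TetR, 197 to 316 in TetR and not TetR-MYBTA, 6 to 37 in TetR-MYBTA and not WT, 122 to 211 in WT and not TetR-MYBTA, 67 to 128 in TetR and not WT, and 38 to 71 in WT and not TetR. Lost genes were 3 at equal length, 15 in the upper 50%, 4 by gene ends only and 10 to 16 with 1 library left out (kept 392 to 418, gained 0 to 1). Kept genes were 246 in the upper 50%. A rule that asks for fewer libraries is easier to meet, which raises such counts by construction.

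The kept share on chromosome 19 minus that on the other autosomes was -6.53 points, -5.82 at equal length, -7.80 with a cover of 50%, and -7.95 to -6.30 with 1 library left out, alternatives added after seeing the data. The median rank difference was -13.1, -18.0 in the upper 50% and -14.2 to -11.8 with 1 library left out; TetR minus WT was then -5.26 to -2.91. The median window ratio was 0.811 at equal length, 0.720 in the upper 50%, 0.765 with windows of 1 Mb and 0.771 to 0.792 with 1 library left out, and windows lower in every TetR-MYBTA library were 29 of 1 Mb, 11 of 5 Mb and 18 to 20. The causes were not tested. With 11 or 12 tags needed for a peak, a region near that threshold can be absent from a list by sampling alone.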
